A study of Mus musculus with 34 samples.

Results

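The cytosolic ribosomal protein genes are described here by their H3K4me3 signal in villus cells of the small intestine. They were chosen by name alone, as the protein-coding genes of the GENCODE M21 annotation of the mm10 mouse genome whose names begin with Rpl or Rps and a digit, with Rplp0, Rplp1 or Rplp2, or with Rpsa, leaving out pseudogene names and the S6 kinases. The rule found 86 of 21938 protein-coding genes. They comprise 31 small subunit genes, 43 large subunit genes and 3 genes of the stalk, the lateral arm that recruits elongation factors, which makes 77 subunit genes. There are also 8 named paralogs and Rps19bp1, which encodes a protein that binds Rps19 and is no subunit. They lie on 19 chromosomes, with 4 of them on the X chromosome. The rule took only names, so no measured value chose a member.

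Each cytosolic ribosome carries 1 copy of nearly every subunit, and its genes are therefore transcribed together at high rates in most cells. Many of their mRNAs start with a C followed by a run of pyrimidines, the 5' terminal oligopyrimidine (TOP) tract, through which mTOR and Larp1 control their translation. H3K4me3, the trimethylated lysine of histone H3, marks the nucleosomes around active transcription starts, usually more strongly on the side of the gene body. In the intestine, ribosome production is high in the dividing cells of the crypt, and the villus cells examined here are mostly absorptive cells that have left the cell cycle.

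The libraries were made by CUT&RUN, in which an H3K4me3 antibody tethers protein A-MNase to chromatin in unfixed nuclei so that nearby DNA is cut free and sequenced. Villus cells came from normal-appearing small intestine of 2 wild-type mice and 2 ApcMin/+ mice, which carry a germline truncating allele of Apc, a restraint on WNT signalling, in every cell and develop intestinal adenomas. All mice were of the C57BL/6J strain, the labels give an age of 5 weeks for each where the study's methods give an age a week higher, and scraped villus tissue is a mixture of cells. The adenomas themselves, other ages, the other antibodies and the RNA libraries were not analysed here.

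The deposited values are coverage tracks that the authors scaled to 10000000 tags per library, and the libraries held 1430000 to 5470000 tags before scaling. The H3K4me3 signal of a gene is the mean of that coverage within 1000 bp of its 5' end, in units of overlapping fragments. One library stood apart. The promoter windows tested between genotypes took 28.8% of the track in ApcMin/+ replicate 1 and 6.50 to 9.94% in the other 3 libraries. Of 12 enterocyte markers, 10 reached the minimum mean signal of 2 that was required for testing, with Vil1, which builds microvilli, at 14.2. None of 10 immune, 8 mesenchymal, 7 secretory-cell and 10 silent tissue-specific genes reached it, and 4 of 7 crypt markers did. These were Top2a at 9.70, Mki67 at 8.11, Axin2 at 3.12 and Smoc2 at 2.70. Mki67 encodes Ki67, which the study stained as a sign of proliferation. The summed signal of the 10 immune markers was 7.10 and 5.61 in wild type and 13.7 and 7.68 in ApcMin/+ mice, with Ptprc, the common leukocyte antigen, listed at 0 in wild-type replicate 1. The 8 mesenchymal markers summed to 3.84 and 4.24 against 6.38 and 6.44. On the same scale the 12 enterocyte markers summed to 67.1 and 39.2 against 182 and 49.4. The 7 crypt markers summed to 17.6 and 12.7 against 53.6 and 21.0. All 21938 protein-coding genes summed to 56923 and 38518 against 150200 and 51490, with ApcMin/+ replicate 2 below wild-type replicate 1. The same order held for the enterocyte sums. In the immune, mesenchymal and crypt sums both ApcMin/+ libraries lay above both wild-type libraries. The 7 secretory-cell genes summed to 10.2 and 4.16 against 10.2 and 8.42, and the 10 silent genes to 6.25 and 5.42 against 3.44 and 8.16. The part of these cell types in the differences given further on was not tested.

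To show what the starts of these genes look like, the reference sequence is given for 8 members that the results turn on. They are the most strongly marked gene, members with and without a pyrimidine tract, a stalk pair, and the genes with the largest and the smallest difference between genotypes. Each stretch runs from 60 bases before the RefSeq start to 20 bases from that start on, 5' to 3' on the gene's own strand, in GRCm38.p6, the assembly of mm10. The stretches lie at chr15:5116553-5116632 on the plus strand for Rpl37, chr14:18270967-18271046 on the minus strand for Rpl15, chr4:86857348-86857427 on the minus strand for Rps6, and chr7:141447591-141447670 on the plus strand for Rplp2. The others lie at chr17:33955646-33955725 on the minus strand for Rps18, chr2:180257319-180257398 on the plus strand for Rps21, chr5:115559407-115559486 on the plus strand for Rplp0, and chr7:45128726-45128805 on the minus strand for Rpl13a. Capitals mark the run of 7 or more pyrimidines that touches position -5 to 10 of the start.
Rpl37: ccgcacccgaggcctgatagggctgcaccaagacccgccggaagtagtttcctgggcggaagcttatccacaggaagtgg
Rpl15: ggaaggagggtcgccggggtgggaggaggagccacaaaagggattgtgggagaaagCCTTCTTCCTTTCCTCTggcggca
Rps6: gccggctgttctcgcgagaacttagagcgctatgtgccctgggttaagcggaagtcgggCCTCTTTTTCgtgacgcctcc
Rplp2: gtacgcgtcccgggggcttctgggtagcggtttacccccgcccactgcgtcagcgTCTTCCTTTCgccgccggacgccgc
Rps18: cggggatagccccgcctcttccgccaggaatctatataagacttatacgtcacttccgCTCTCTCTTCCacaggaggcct
Rps21: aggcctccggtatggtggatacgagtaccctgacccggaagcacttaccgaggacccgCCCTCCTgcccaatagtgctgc
Rplp0: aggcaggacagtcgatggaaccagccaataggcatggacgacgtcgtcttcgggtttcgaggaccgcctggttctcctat
Rpl13a: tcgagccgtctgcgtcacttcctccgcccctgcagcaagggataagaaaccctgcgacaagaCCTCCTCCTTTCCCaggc

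The run of Rpl15 was 17 bases long and that of Rps6 was 10, whereas Rpl37 and Rplp0 had none that touched position -5 to 10 of the annotated start. The promoter table of RefSeq, 250 bases before to 50 bases after a start, held 66 of the 86 members and 16538 promoters in all. A C at the start with at least 4 pyrimidines after it was found in 13 members, which is 19.7% of the matched members against 2.19% of all promoters. A run of 7 or more pyrimidines touching position -5 to 10 of the start was found in 27 members, 40.9% against 16.6%. Runs at the start were thus more frequent in the members than in all promoters, and a tract is missed where the annotated start is a few bases off. CCGGAAG, the core of the motif bound by ETS factors, was present on either strand in 25 members, 37.9% against 12.4%. It stands inside the printed stretches of Rpl37 and Rps21. ATGGCG, part of the motif of YY1, was present in 19 members, 28.8% against 11.6%, and GGGCGG, the GC box, in 40, 60.6% against 48.3%. CACGTG, the E-box bound by MYC, was present in 5 members, 7.58% against 8.07%. TATAAA was present in 6 members (Rpl22l1, Rpl36a, Rpl39, Rplp0, Rps2 and Rps28), 9.09% against 12.9%. The median H3K4me3 signal was 7.36 with and 7.22 without CCGGAAG, 7.39 with and 7.22 without a strict TOP start, and 4.63 with and 7.40 without TATAAA. The signal is that at the gene 5' end, and the RefSeq start lay within 100 bp of it in 51 of the 66 members. In Rps2, which holds TATAAA, the RefSeq start lay 1947 bp downstream. Rpl36a and Rpl39, which also hold TATAAA, are X-linked. A promoter can hold several of these motifs, so the counts overlap.

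The ribosomal protein genes were well marked as a class and unequal among themselves. Their median signal was 7.26 with quartiles of 5.14 and 8.72, against a median of 1.31 over all protein-coding genes and 6.27 over the 9931 promoters that reached the minimum. The median member stood at percentile 82.5 of protein-coding genes. Of the 86, 59 lay at or above percentile 75, 18 at or above percentile 90, 2 at or above percentile 99, and 8 below percentile 50. Those 8 were the members that missed the minimum, so 78 members were tested. Among these 78 the strongest carried 5.28 times the signal of the weakest.

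**Figure D1:**
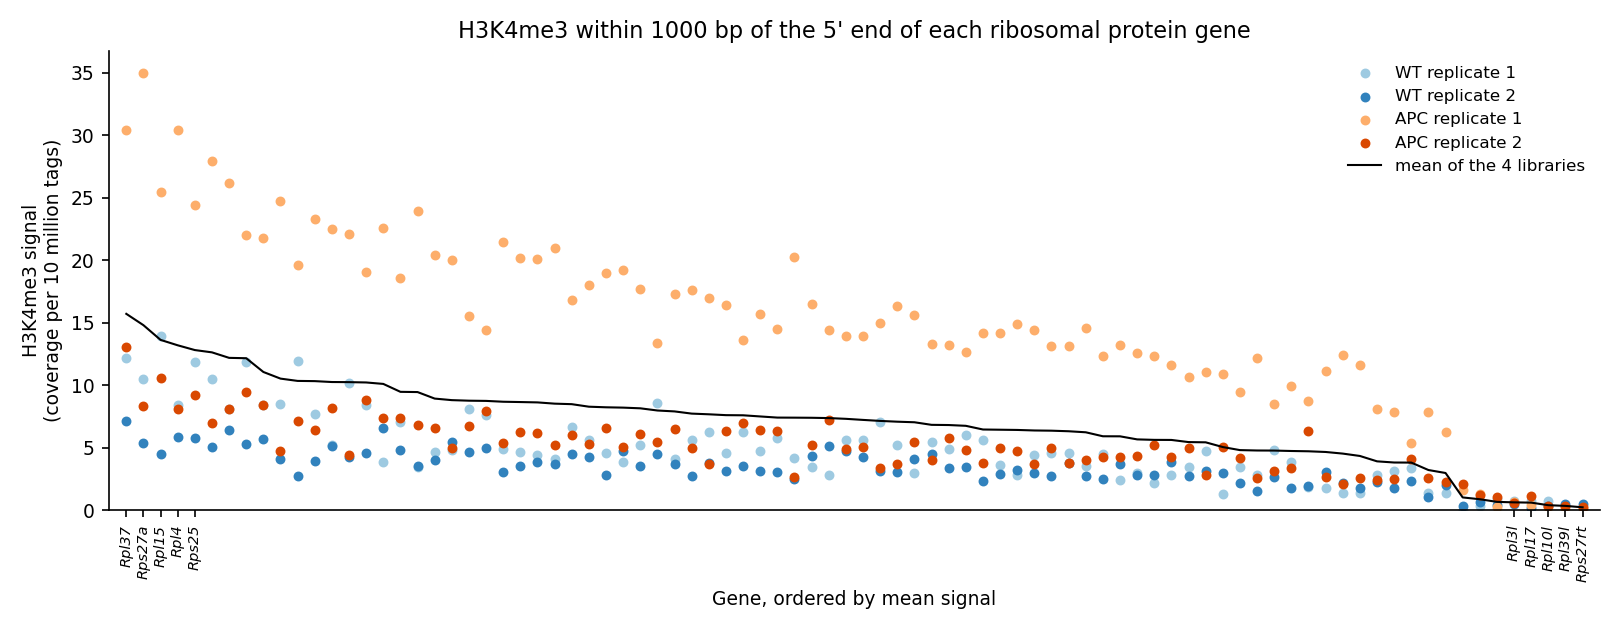
H3K4me3 signal (mean coverage within 1000 bp of the gene 5' end) of the 86 ribosomal protein genes, ordered along the horizontal axis by mean signal, with the 5 highest and 5 lowest named and a point per gene and library (WT, wild type; APC, ApcMin/+) and a black line for the mean of the 4 libraries. The order falls from Rpl37 at 15.7 to Rps27rt at 0.226, and ApcMin/+ replicate 1 lies above the other libraries at all 78 tested members.

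Rpl37, a large subunit gene, had the highest mean signal of the class, 15.7. It reached 12.2 and 7.10 in wild type and 30.4 and 13.1 in ApcMin/+ mice, from 34.9, 67.9, 225 and 143 fragments. Rps27a, which encodes ubiquitin fused to a small subunit protein, followed with 10.5 and 5.39 against 35.0 and 8.33. In Rps27a the ApcMin/+ replicates lay on either side of wild-type replicate 1. The large subunit genes Rpl15 and Rpl4 averaged 13.6 and 13.2, and the small subunit gene Rps25 averaged 12.8. These 5 were the most strongly marked members, and neighbouring ranks among them did not differ beyond the spread of the libraries.

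The small subunit had a median signal of 6.82 and the large subunit with the stalk 7.40, so the genes of both subunits were marked to a like degree. Rps6, the subunit phosphorylated by S6 kinase, had 5.23 and 5.11 in wild-type and 22.5 and 8.16 in ApcMin/+ libraries. Rps3, which sits at the mRNA entry of the small subunit, had 4.12 and 3.72 against 21.0 and 5.24. In both genes each ApcMin/+ library lay above each wild-type library. Rpsa, the laminin receptor and small subunit protein, was among the weaker subunit genes, with 1.41 and 1.77 against 11.6 and 2.54. Rps19, mutated in Diamond-Blackfan anaemia, had 4.88 and 3.36 against 13.2 and 5.76.

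Rpl5 and Rpl11, which with 5S rRNA bind and inhibit Mdm2 when ribosome assembly is disturbed, were marked nearly alike, at a mean of 8.76 and 8.74. Rpl5 had 8.12 and 4.62 in wild-type and 15.6 and 6.73 in ApcMin/+ libraries, and Rpl11 had 7.60 and 4.97 against 14.4 and 7.96. For Rpl11 the groups did not overlap, and for Rpl5 they did. Rpl23, another binder of Mdm2, had 5.75 and 3.03 against 14.5 and 6.37. Rpl26, which binds the p53 mRNA, had 2.13 and 2.82 against 12.3 and 5.22. Rpl13a, which can leave the ribosome to silence inflammatory mRNAs, had 2.97 and 4.13 against 15.6 and 5.45. These 5 extra-ribosomal actors thus spanned means of 5.62 to 8.76, inside the range of the class.

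The stalk genes were unequal. Rplp1 averaged 8.48 and Rplp2 averaged 7.67, whereas Rplp0, the base to which both bind, averaged 3.90. Rplp0 had 2.85 and 2.26 in wild-type and 8.06 and 2.45 in ApcMin/+ libraries, and Rplp1 had 6.63 and 4.46 against 16.8 and 6.03. Rplp0 was the lowest stalk gene in all 4 libraries. Of the bases in its window, 17.2% began a 25-base word that occurs elsewhere in the genome, against 9.11% for Rplp1 and 19.4% for Rplp2.

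A subunit and a subunit-bound protein whose names escape the rule were marked more strongly than the median member. Fau, which encodes a ubiquitin-like protein fused to Rps30, averaged 12.6, and Rack1, the scaffold on the small subunit, averaged 12.5. Rps19bp1 averaged 4.80, with 3.49 and 2.16 against 9.41 and 4.14.

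The 4 members on the X chromosome, which is present in 1 active copy, had a median of 4.63, against 7.33 for the 82 on autosomes. Rpl10 averaged 7.40, Rpl36a 4.73, Rpl39 4.52 and Rps4x 3.21. With 4 genes this is a description. Small nucleolar RNAs, which guide rRNA modification, lie in the introns of 30 members, 58 of them in all and 5 in Rpl4 alone. Hosts and non-hosts had medians of 7.20 and 7.26. In 10 members the gene 5' end lies head to head with that of another protein-coding gene within 1000 bp. These 10 had a median of 7.82 and the other 76 of 7.11, and Rps27, whose start lies 44 bp from that of Rab13, averaged 7.39. Rps2 and Rps24 are among the 10, though their strongest annotated starts lie 1994 and 4024 bp downstream of that end.

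Within the class, the genes kept much of their order from library to library. The Spearman correlation across the 86 genes ranged from 0.672 to 0.778 over the 6 pairs of libraries, and from 0.729 to 0.817 over all tested promoters. These are correlations across genes, which share each library's depth. Across the 78 tested members the signal correlated at 0.203 with the number of CpG dinucleotides in the window, at 0.442 with the width of the marked domain, which is read from the same coverage, and at -0.295 with the share of words found elsewhere. In wild-type replicate 1 the median member window held 13.0 fragments, against 31.3, 107 and 54.7 in wild-type replicate 2 and ApcMin/+ replicates 1 and 2, so the order of single genes was least certain there.

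From the annotated gene 5' end, most of the signal lay on the gene side. Averaged over the tested members, signal was highest at 140 to 160 bp inside the gene, at 16.5, and was 11.0 within 50 bp of the start, a ratio of 1.50. Over all tested promoters the maximum was 13.3, at 120 to 140 bp, with 8.45 at the start and a ratio of 1.57. The rise from the start to the maximum was thus about as large in the ribosomal protein genes as over all tested promoters. It was 1.99 in the mitochondrial ribosomal protein genes and 2.27 in the proteasome genes. Upstream, the members' profile stayed between 10.1 and 10.6 from 180 bp before the start up to the start, whereas over all tested promoters it fell from 8.78 at 160 bp before the start to 7.70 at 40 bp before it. The maximum lay downstream of the 5' end in 61 of 78 tested members, at a median of 160 bp.

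**Figure D2:**
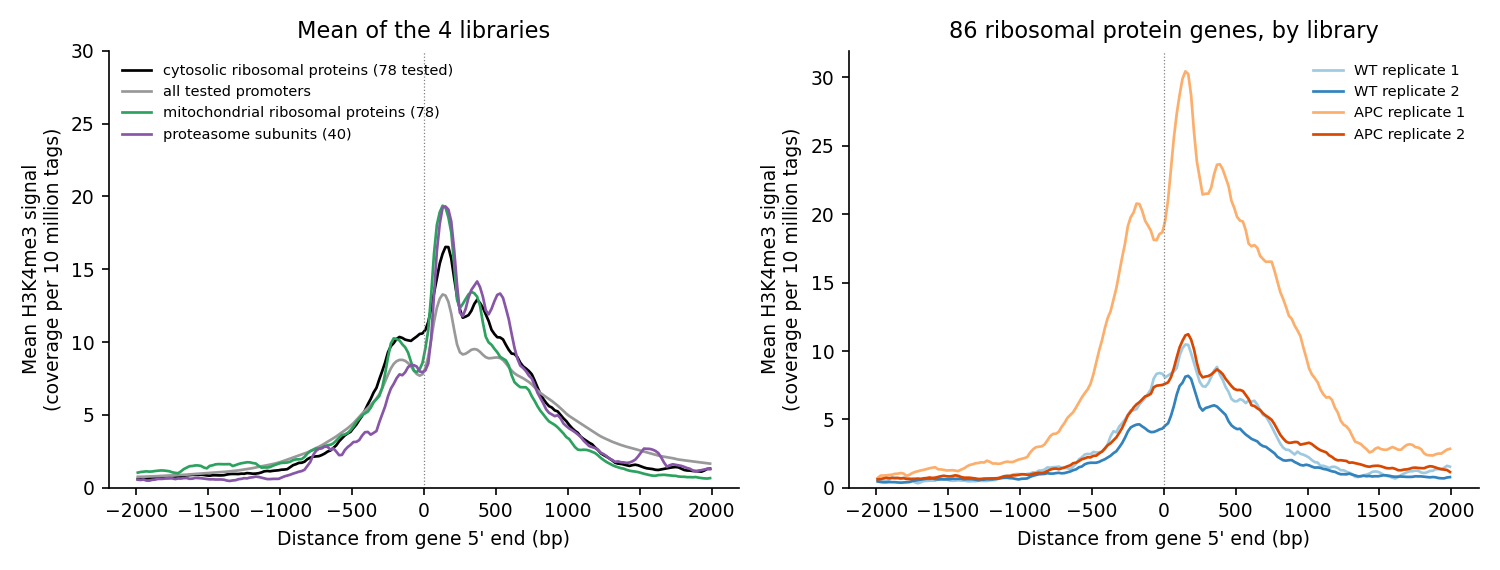
Mean H3K4me3 signal in 20-bp bins against distance from the gene 5' end in bp. The left panel gives the mean of the 4 libraries for the tested ribosomal protein genes, all tested promoters, mitochondrial ribosomal protein genes and proteasome genes, and the right panel gives the 86 ribosomal protein genes in each library (WT, wild type; APC, ApcMin/+). The ribosomal protein genes peak at 16.5, below the 19.4 and 19.3 of the mitochondrial ribosomal and proteasome genes, and rise less from the start to the maximum.

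Of the signal within 1000 bp of the 5' end, the median tested member held 69.3% on the gene side, against 68.2% over all tested promoters. It held more than 50% there in 67 of 78 members, against 76.8% of all tested promoters. Rps3 held 90.3% and Rps4x 95.5% downstream, whereas Rps21 held 37.7% and Rpl18 10.5%. The side depended on which start was used. Around the annotated start with the highest signal, which is picked by that signal, the median over the 86 members was 47.8% downstream, and among genes that reached 2 there it was 48.3% in 82 members against 58.4% in 10797 protein-coding genes.

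A domain was taken as neighbouring 100-bp bins of at least 5 times the genome mean, joined over gaps of up to 500 bp and at least 300 bp long. Of the 86 members, 80 had one within 1000 bp of the 5' end and in 76 it covered the 5' end. A domain was also found at 12777 of 21938 protein-coding genes, at all 9931 tested promoters and at 76 of 78 mitochondrial ribosomal protein genes. The median width was 2050 bp in tested members and 2000 bp over all tested promoters, against 1650 bp in mitochondrial ribosomal protein genes and 1700 bp in proteasome genes. The widest domains, 4100 bp, lay at Rpl7 and Rpl18, and the narrowest, 700 bp, at Rps4x and Rpl6. The Rpl18 domain lay mostly upstream of the gene 5' end and stopped 644 bp downstream of it. It did not reach the RefSeq start of Rpl18 at 2614 bp or its strongest annotated start at 2700 bp. The enterocyte markers, genes of the absorptive cell, had a median signal of 7.05, close to that of the members, over domains with a median width of 5500 bp. By library, the enterocyte median was 6.25 and 3.23 in wild-type and 13.5 and 4.43 in ApcMin/+ libraries. The members' median was 4.53 and 3.28 against 14.45 and 5.00, lower than the enterocyte median only in wild-type replicate 1. On the mean of the 4 libraries, ribosomal protein genes therefore had a signal close to that of these cell-type genes over a shorter stretch.

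Ribosomal protein genes have many processed copies, and reads that fit several places are lost when ambiguous alignments are removed. Of the bases of the median member's window, 9.92% began a 25-base word found elsewhere, against 3.11% for all protein-coding genes. The share was lowest in the 500 bp before the 5' end, at 6.78%, and was 12.4% in the 500 bp after it. The 44 members with under 10% of such words had a median signal of 7.93 and the other 42 had 6.42. The highest share of any member was 37.3%. How far lost reads lowered the members' values was not tested.

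Little signal was counted at the copies themselves, where the median window had 30.2% of words found elsewhere. Of 301 annotated pseudogenes of ribosomal proteins, the median was 0.290 and 2 reached the minimum of 2. Rpl29-ps2, at 5.17, lies 160 bp from the start of Akr1e1. Rps4l, a transcribed copy of Rps4x on an autosome, had 4.53 and 2.61 in wild-type and 7.18 and 3.05 in ApcMin/+ libraries and averaged 4.34, against 3.21 for Rps4x itself. Its nearest protein-coding start lies 89733 bp away.

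The named paralogs fell into a marked and an unmarked set. Rpl7l1 averaged 10.5, Rps27l, which p53 induces, 10.2, Rpl36al 9.46 and Rpl22l1 5.62. Rpl3l, the form of heart and skeletal muscle, averaged 0.623, Rpl10l, the form of the male germline, 0.396, Rpl39l, also a germline form, 0.341, and Rps27rt 0.226. The last 4 were 4 of the 5 lowest values of the class. The 10 silent tissue-specific genes ranged from 0.377 to 0.744, with a median of 0.604.

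**Figure D3:**
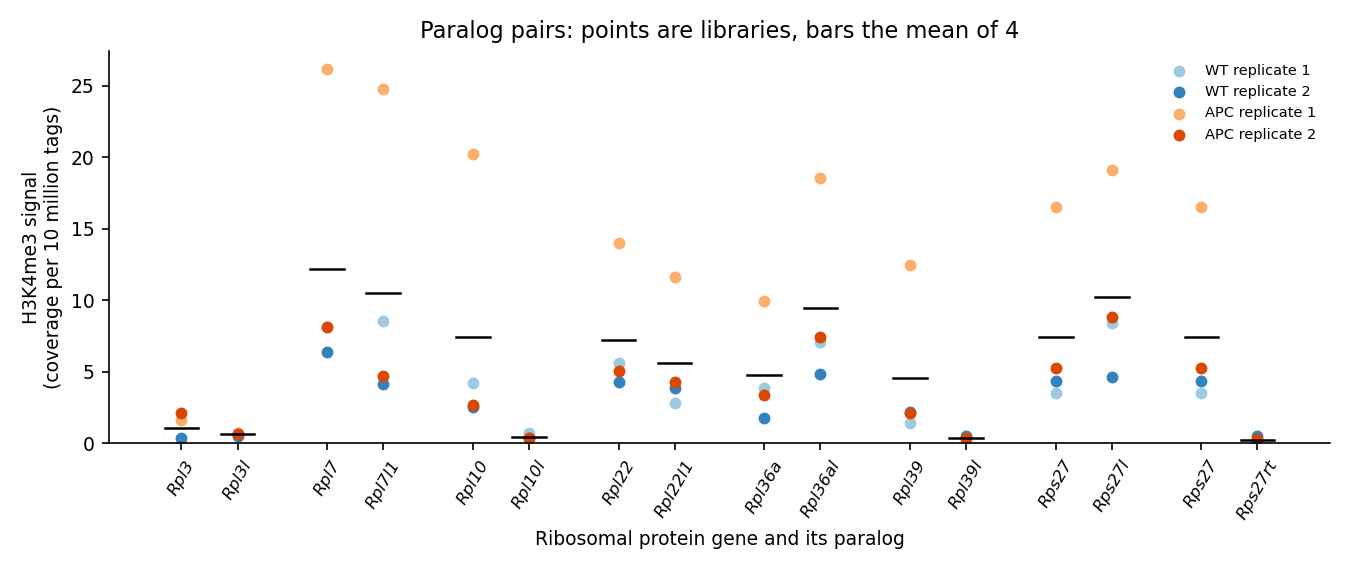
H3K4me3 signal (mean coverage within 1000 bp of the gene 5' end) of each ribosomal protein gene and its paralog, with a point per library (WT, wild type; APC, ApcMin/+) and a bar at the mean of 4. Rpl7l1, Rps27l, Rpl36al and Rpl22l1 were marked at 5.62 to 10.5, and Rpl3l, Rpl10l and Rpl39l stayed at 0.341 to 0.623.

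In the marked pairs the paralog was not always the weaker copy. Rps27l had 8.37 and 4.61 in wild-type and 19.1 and 8.79 in ApcMin/+ libraries, above Rps27 in each library, where the values were 3.49 and 4.34 against 16.5 and 5.23. Rpl36al had 7.04 and 4.84 against 18.6 and 7.40, above X-linked Rpl36a in each library. Rpl36al shares its promoter with Mgat2, whose start is 74 bp away. Rpl22l1, at 5.62, was below Rpl22, at 7.22, and Rpl7l1, at 10.5, was below Rpl7, at 12.2.

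The gene 5' end is the first base of the outermost annotated transcript, and some members start elsewhere. For 8 members the annotated start with the highest signal lay more than 1000 bp downstream of the gene 5' end, which is 9.30% of the class against 17.4% of all protein-coding genes. In Rpl3 the signal rose from 1.02 at the gene 5' end to 7.27 at a start 8535 bp downstream, in Rps10 from 0.661 to 6.13 at 1441 bp, and in Rps2 from 0.874 to 5.75 at 1994 bp. Rpl17 had 0.601 at the gene 5' end and 5.07 at 1919 bp. These 4 subunit genes missed the minimum only because of their outermost annotated start, as did 866 genes, or 3.95%, of all protein-coding genes, and they make 4.65% of the class. At Rpl3 the stronger start had 5.23 and 1.63 in wild-type and 17.8 and 4.46 in ApcMin/+ libraries.

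**Figure D4:**
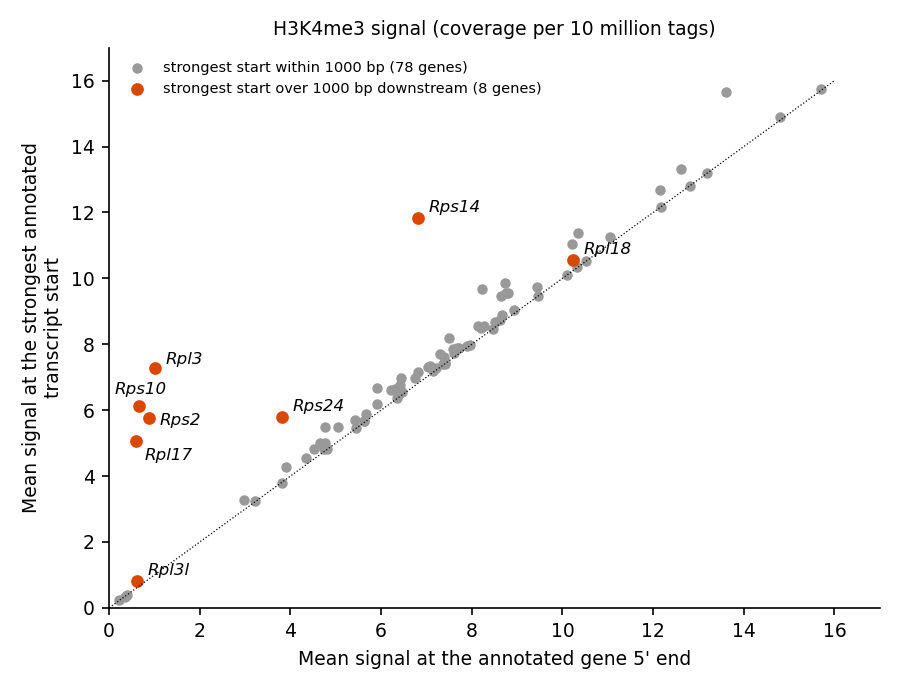
Mean H3K4me3 signal of the 86 ribosomal protein genes at the gene 5' end (horizontal axis) and at the annotated start with the highest signal (vertical axis), with equality as a dotted line and the 8 genes whose strongest start lies more than 1000 bp downstream named. Rps10, Rpl17, Rps2 and Rpl3 pass the minimum of 2 only at the downstream start, and Rpl3l stays below it at both.

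In Rps14 the gene 5' end had 6.82 and a start 28131 bp downstream had 11.8, and in Rps24 the values were 3.81 and 5.79, at 4024 bp. Rpl18 had 10.2 and 10.5 at starts 2700 bp apart, and Rpl3l remained at 0.819. With each gene taken at its strongest start, all 77 subunit genes reached the minimum and 82 members were tested. The strongest start was picked by the signal itself, so its higher values are by construction.

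ApcMin/+ villus was then compared with wild-type villus, which asks whether the mark at these promoters differs in normal-appearing tissue that carries the Apc allele. On the scale of the deposited tracks the members were higher in ApcMin/+ libraries by a median of 0.98 on the log2(signal + 1) scale, against 0.85 over all 9931 tested promoters. The differences of single members ran from 0.41 to 1.63 with standard errors of 0.69 to 1.26. No member passed the test, limma's moderated test with trend and Benjamini-Hochberg adjustment over all tested promoters at a threshold of 0.05. The share of all tested promoters called was 0% in either direction, and the smallest adjusted p among the members was 0.683. An unadjusted p under 0.05 was found for 1 member, Rps4x, and for 131 promoters in all. In bulk chromatin, more cells with the mark and more mark per cell cannot be told apart.

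All 78 tested members had a difference above 0, as had 9850 of the 9931 promoters, which is 99.2% of them, so the sign was shared with nearly all tested promoters. Each track is scaled to the same total, and when weakly marked promoters are kept, 70.6% of 21938 had a difference above 0. In 42 members, 53.8%, both ApcMin/+ libraries lay above both wild-type libraries, against 38.5% of all tested promoters, and in 0 members both lay below, against 0.161%. ApcMin/+ replicate 1 was the highest library at all 78 tested members, and wild-type replicate 2 was the lowest at 57. ApcMin/+ replicate 1 decided the size of the difference. Without it the members' median difference was 0.29, and without ApcMin/+ replicate 2, which leaves it alone against wild type, the median was 1.73 and 54 of 78 members passed the test as higher, against 65.2% of all tested promoters. Over all tested promoters the median differences in these fits were 0.13 without ApcMin/+ replicate 1 and 1.58 without ApcMin/+ replicate 2. Without wild-type replicate 1 the number of members with both ApcMin/+ libraries higher was 71, or 91.0%, against 87.5% of all tested promoters. In a fit with a lone library, that library is assumed to vary as the other pair does.

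**Figure D5:**
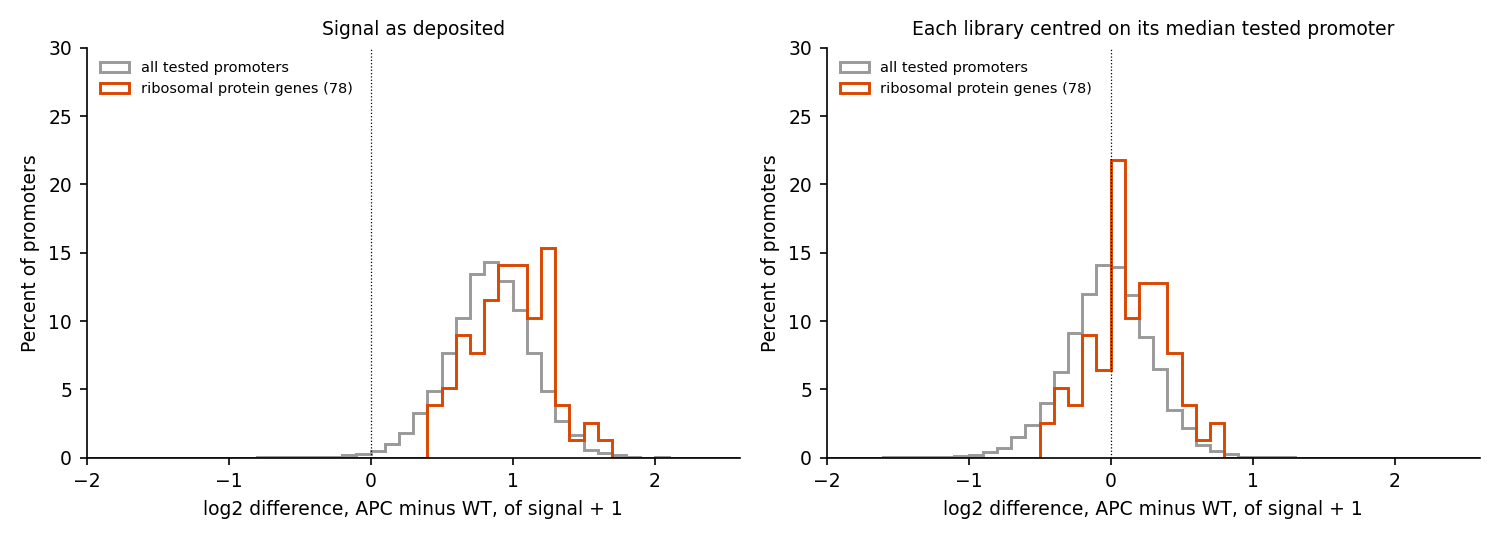
Percent of the 78 tested ribosomal protein genes and of all 9931 tested promoters by log2 difference of signal + 1, ApcMin/+ (APC) minus wild type (WT), on the scale of the deposited tracks on the left and after centring of the libraries on the right. The ribosomal protein genes span 0.41 to 1.63 on the left and -0.44 to 0.77, on either side of 0, on the right.

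Each library was also centred on its median tested promoter, which removes a shift shared by all promoters. The members' median difference was then 0.12, against -0.01 over all tested promoters, with a range from -0.44 to 0.77 and standard errors of 0.28 to 0.48. No member passed the test, and 12 promoters did, 0.0503% of those tested as higher and 0.0705% as lower. That count of 12 became 2 and 18 without wild-type replicates 1 and 2, and 0 and 30 without ApcMin/+ replicates 1 and 2, while no member passed in any of these fits. Before centring, the median member stood above the median tested promoter by 0.04 and 0.16 log2 units in wild type and by 0.20 and 0.25 in ApcMin/+ mice. The groups did not overlap, but wild-type replicate 2 and ApcMin/+ replicate 1 were close to each other. The share of all tested promoter signal that fell in the 78 members was 0.841 and 0.878% in wild-type and 0.897 and 0.972% in ApcMin/+ libraries, where the members make 0.785% of promoters.

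On the centred scale the members divided. Of the 78, 57 had a difference above 0, against 48.8% of all tested promoters. In 20 members both ApcMin/+ libraries lay above both wild-type libraries, 13.1% of all tested promoters doing so, and in 9 members both lay below, against 14.3%. With 1 library left out, fewer libraries have to be ordered. The ApcMin/+ side then lay wholly above in 35 and 37 members without wild-type replicates 1 and 2, against 29% and 33.6% of all tested promoters, and in 37 and 31 members without ApcMin/+ replicates 1 and 2, against 28.8% and 32.8%. The 20 included Rps18, Rps6, Rps3, Rpsa, Rps4x, Rps13, Rpl4, Rpl28, Rpl34 and Rpl24. The 9 included Rpl22, Rpl35, Rplp0, Rps14, Rps15, Rps16, Rps21 and Rps24. Rps14 and Rps24 were placed there by a gene 5' end far from their strongest start. At that end their deposited-scale differences were 0.50 and 0.71, below the median of 0.85 over all tested promoters. At their strongest starts, 28131 and 4024 bp downstream, both differences lay above the corresponding median of 0.86. Centred values at those starts are not given here. Small and large subunit genes had the same median centred difference, 0.17. Both ApcMin/+ libraries lay above in 9 of 29 small subunit genes and in 11 of 44 large subunit and stalk genes, and below in 6 and 3 of them. The difference between the subunits was not tested.

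Rps18, a small subunit protein of the head, had the largest difference on both scales. Its signal was 3.49 and 3.56 in wild-type and 23.9 and 6.83 in ApcMin/+ libraries, a centred difference of 0.77 ± 0.28 (SE, n = 2 per genotype), and limma's adjusted p was 0.947. Rpl8, of the large subunit, had 1.86 and 1.89 against 8.72 and 6.35, a centred difference of 0.70 ± 0.34. Rpl10a had 1.26 and 2.97 against 10.9 and 5.05, a centred difference of 0.65 ± 0.34. In each of the 3 genes both ApcMin/+ libraries were above both wild-type libraries on the deposited scale, and on the centred scale this held for Rps18 but not for Rpl8 and Rpl10a.

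Rps21 and Rps15, both of the small subunit, were among the 3 members with the smallest differences. Rps21 had 8.61 and 4.47 in wild-type and 13.3 and 5.47 in ApcMin/+ libraries, and Rps15 had 4.76 and 3.11 against 11.0 and 2.79. On the deposited scale the groups overlapped in both genes, and on the centred scale both ApcMin/+ libraries lay below both wild-type libraries in each. Their centred differences were -0.44 ± 0.28 and -0.38 ± 0.31, against 0.41 and 0.47 on the deposited scale, so their direction turned with the scaling and neither passed the test. On the centred scale an unadjusted p under 0.05 was found for Rps18, Rpl8 and Rpl28 among the members and for 294 promoters in all.

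Other genes of protein synthesis were examined beside the members. Of 19 genes for translation factors and other TOP mRNAs, 17 were tested, with a median signal of 7.20 and a median centred difference of 0.09. Eef1a1, an elongation factor with a very abundant mRNA, was listed at 1.36 at its gene 5' end and was not tested, and Eef2 averaged 7.26. All 30 ribosome biogenesis genes and all 15 genes of RNA polymerase I, which makes rRNA, were tested, with median signals of 6.55 and 6.05 and centred differences of 0.09 and 0.09. Of 10 regulators of TOP mRNAs 9 were tested, with a median signal of 6.63 and a centred difference of -0.24, Mtor having 6.98 and 3.55 in wild-type and 14.7 and 4.30 in ApcMin/+ libraries. The mitochondrial ribosomal protein genes had a median signal of 7.27 and a centred difference of 0.01, and the proteasome genes 7.47 and 0.05. No gene of these lists passed the test on either scale. The cytosolic ribosomal protein genes thus had a median level close to that of both other large complexes, with a lower maximum downstream of the start and a wider domain, differences that were not tested.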

How the data were processed

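H3K4me3 was measured by CUT&RUN in 4 libraries, 2 per genotype. The authors trimmed the paired reads, aligned them to mm10 with Bowtie2, removed Picard duplicates and ambiguous alignments, kept fragments of 150 to 500 bp and wrote HOMER coverage. The deposited signal is that coverage scaled by the authors to 10000000 tags, with no control subtracted and no replicates pooled.

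Signal was averaged within 1000 bp of each gene 5' end of the GENCODE M21 annotation with numpy 2.4.6 and pandas 2.3.3. Promoters whose 4-library mean was 2 or more were compared on the log2(signal + 1) scale with limma 3.58.1 in R 4.3.3, with trend and no block, and adjusted over all 9931. A fold on that scale understates changes of low genes. The script was tested on simulated data. The replicates are separate mice, and the study states that each antibody was run in 2 experiments on samples of the genotypes. The sources used here do not say which replicates shared an experiment, so p-values measure the spread between these mice and runs. Depth ran from 1430000 to 5470000 tags, and fragment numbers cover counting error only.

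The members and lists were chosen with earlier results of these data known. Named members were the 5 highest and 5 lowest in signal, the 3 with the largest and the 3 with the smallest difference on each scale, 14 genes by role, the paralog pairs and the genes outside the name rule. Other members are named after their values were seen. The values of a few genes under this rule are not reported here. Motifs were searched in the RefSeq promoters of GRCm38.p6, which held 66 members.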

Additional observations from a re-analysis of the deposited data

How the results depend on the processing

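No member passed the test under any setting except the comparison without ApcMin/+ replicate 2, where 54 did, so that leaving out each library gave 0 to 54 members and 0 to 6477 of all promoters. Over the same fits the members' median log2 difference ran from 0.29 to 1.73, against 0.13 to 1.58 over all tested promoters. The remaining ApcMin/+ libraries lay above the remaining wild-type libraries in 42 to 78 members. These were 53.8 to 100% of tested members, against 38.6 to 98.85% of all tested promoters. In the full comparison the count was 42, or 53.8%, against 38.5%. These leave-one-out counts rest on fewer libraries.

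Centring gave 12 promoters past the threshold, a median of 0.12 and 20 members with both libraries higher, and quantile normalization gave 2, 0.14 and 23, the members with both libraries higher being 25.6 and 29.5% against 13.1 and 14.8% of all tested promoters. With centring, 2, 18, 0 and 30 promoters passed without wild-type replicates 1 and 2 and ApcMin/+ replicates 1 and 2, the medians were 0.12, 0.10, 0.16 and 0.15, and 31 to 37 members had the remaining ApcMin/+ libraries above the remaining wild-type libraries. Without ApcMin/+ replicate 2, 54 members passed on the deposited scale and 0 after centring.

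The genotypes share replicate numbers, and the study ran 2 experiments per antibody without stating that a number marks an experiment. Across the 9931 tested promoters, the deviations of wild-type replicate 1 and ApcMin/+ replicate 1 from their genotype means correlated at 0.196. With 2 libraries per genotype the deviations of replicate 2 mirror these, so that pair adds no separate value. The replicate block gave 1 promoter and 0 members past the threshold, 15 promoters and 0 members with centring, and 71 members higher in both same-numbered pairs, 91.0% against 86.8% of all tested promoters.

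The members exceeded all tested promoters by 0.13 in median log2 difference, and by 0.60 with no filter on low signal, which admits weakly marked promoters to the comparison. In members with under 10% of words found elsewhere the excess was 0.21. Of the 40 of these that were tested, 22 had both ApcMin/+ libraries higher, 55% against 38.5% of all tested promoters. The median percentile of the members was 79.7 in windows of 2000 bp, 79.7 at the strongest start, 85.4 in members with under 10% of words found elsewhere and 77.6 in wild-type replicate 1 on its own. The profile's maximum, centred on 150 bp, moved to 110 at the strongest start and lay between 150 and 170 with a library left out. The downstream share fell from 68.4 to 47.8% at the strongest start. The median domain width of 2000 bp over all members became 1400 bp at 10 times the genome mean, 1600 bp without joining gaps and 1700 to 2200 bp with a library left out. Where no reason is given, the cause was not tested. Wild-type replicate 1, with a median of 13.0 fragments per member window, limits the values of single genes.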
